A study of Mus musculus with 22 samples.

Results

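The nuclear genes of respiratory complex I were followed in mouse kidney, from the rows of a gene count table whose symbols begin with Nduf. Of 55487 genes in the table, 51 had such a symbol. Setting aside 2 with a pseudogene symbol (-ps) and 3 that the annotation calls processed pseudogenes left 46 genes: 14 Ndufa, 1 Ndufab, 10 Ndufb, 2 Ndufc, 8 Ndufs and 3 Ndufv genes and 8 assembly factors (Ndufaf). The symbol rule itself used no measured value, but this gene family was chosen with earlier results of these data known. The kidneys came from 22 male wild-type C57BL/6JRj mice, 1 library per animal: 6 young mice of 4 months and 8 old mice of 21 months, both untreated controls, and 8 old mice given nicotinamide (NAM), a form of vitamin B3 from which cells make NAD. The treated mice ate NAM in the diet for 14 weeks, at 1.6 g per kg food or 200 mg per kg body weight per day. Poly(A) RNA was sequenced from its 3′ ends (QuantSeq), so a read marks a transcript's end and a count does not grow with transcript length.

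Complex I, NADH:ubiquinone oxidoreductase, is the entry point of electrons from NADH into the respiratory chain of the inner mitochondrial membrane. Its peripheral arm, which reaches into the matrix, oxidises NADH in the N module and reduces ubiquinone in the Q module, and its membrane arm pumps protons. Core subunits of the peripheral arm are encoded in the nucleus, those of the membrane arm by mitochondrial DNA, and nuclear accessory subunits surround both. The Ndufaf proteins help to build the complex and are not part of the finished enzyme. Tubules of the kidney, above all the proximal tubule and the thick ascending limb, are rich in mitochondria, whose ATP pays for ion transport.

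All libraries held between 3351065 and 8319865 gene counts, of which 24157 to 53640 fell on the 46 genes. All 46 had enough counts to be tested. Levels below are in CPM, edgeR's unit of counts relative to the library's total count, which is first scaled by a TMM factor, and a trio of levels gives the lowest, the median and the highest kidney of a group. A fold change is on the log2 scale with its standard error (SE), and a gene is said to have fallen or risen where edgeR's quasi-likelihood test, adjusted over all 14683 tested genes, gave an adjusted p under 0.05. The animals are the replicates. In whole tissue, fewer cells of a type and less RNA per cell cannot be told apart.

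The promoters of the subunits that fell with age are shown first, because the regulators of respiratory genes (NRF1, the ETS factor GABPA, YY1 and the oestrogen-related receptors, ERR) bind short sequences near transcription starts. RefSeq windows (GRCm38.p6; 250 bases before the start and 50 after, 300 in all) were matched by symbol for 40 of the 46 genes, in 42 windows. Each was searched on both strands for GCATGCGC (NRF1), CCGGAAG (ETS), AAGATGGC (YY1) and AAGGTCA (ERR sites); these letters do not overlap one another as spelled. Of the 11 genes that fell, 10 had a window, and 6 of these held a match. The stretches of 30 bases around them follow, 5′ to 3′ on the gene's strand, with the match in capitals.
Ndufa6, chr15:82354356-82354385, minus strand, NRF1 letters 83 bases before the start: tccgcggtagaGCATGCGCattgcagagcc
Ndufa8, chr2:36049328-36049357, minus strand, NRF1 letters 8 bases before the start: tcgctggagacGCATGCGCagatggtaccg
Ndufb2, chr6:39592373-39592402, plus strand, ERR letters 181 bases before the start: ggagcagcagtAAGGTCAgccaagagcacc
Ndufb6, chr4:40279635-40279664, minus strand, ETS letters as the reverse complement 232 bases before the start: tcgtccttgttCTTCCGGtcccctccccta
Ndufc1, chr3:51408915-51408944, minus strand, YY1 letters from base 23 of the first exon: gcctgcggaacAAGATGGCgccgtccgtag
Ndufs4, chr13:114388045-114388074, minus strand, YY1 letters from base 36 of the first exon: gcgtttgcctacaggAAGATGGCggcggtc

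The YY1 letters stood in 8 of the 42 windows of complex I genes (19.0%), against 2.75% of the 32851 windows of the RefSeq table and 4.17% of the windows of tested genes. NRF1 letters stood in 5 windows (11.9%), against 2.71% of all windows and 4.71% of those of tested genes. For the ETS letters the shares were 14.3% (6 windows), 8.86% and 16.4%, and for the ERR letters 7.14% (3 windows), 4.72% and 3.27%. So the YY1, NRF1 and ERR shares were above both backgrounds, and the ETS share lay between them. The NRF1 and ERR shares rest on only 5 and 3 windows. Among the genes that fell, NRF1 and YY1 letters were each found in 2 of 10 windows and ETS and ERR letters each in 1. Among the windows of the genes that did not pass, 3 of 32 held NRF1 letters, 5 ETS, 6 YY1 and 2 ERR. The windows of Ndufa1, Ndufb5, Ndufc2 and Ndufv3 held none of the 4. These are matches of letters, not binding sites. The YY1 letters contain ATG, the letters of a start codon, and both YY1 matches printed above lie in a first exon. Whether YY1 matches cover start codons was not tested. The Ndufa8 stretch also overlaps an exon of Ndufa8 in the GENCODE M21 annotation. Its place before the start therefore holds for the RefSeq start only.

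Old kidneys held less complex I RNA than young ones. The 46 genes together took 0.704% to 0.763% of the gene counts in the 6 young kidneys (0.739% ± 0.0227, SD), 0.611% to 0.692% in the 8 old kidneys (0.655% ± 0.0237) and 0.616% to 0.735% in the 8 treated kidneys (0.672% ± 0.0443). Every old kidney lay below every young kidney, and the treated kidneys overlapped both. Gene by gene, 11 of 46 were lower in old than in young kidneys and 0 were higher; over all tested genes, 3.15% were lower and 3.9% higher. In 44 of the 46 the fitted fold change was below 0, with a median of −0.24, against a median of 0.01 over all tested genes. Ndufa1 fell by 29.5%, more than any other of the 46. In 7 of the 46 genes every old kidney was below every young one, as in 1.31% of all tested genes. Leaving out a single kidney moved the count of lower genes between 8 and 15, and leaving out the 4 kidneys that earlier work on these data had set apart (young replicate 6, old replicate 7, treated replicates 1 and 7) gave 12.

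**Figure D1:**
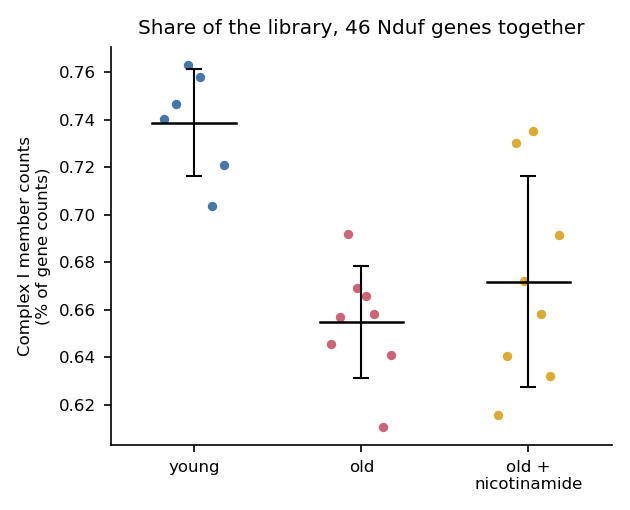
Share of each kidney's gene counts that fell on the 46 complex I genes (vertical axis, percent, not starting at 0) in young, old and NAM-treated old mice; each point is 1 kidney, the line is the group's mean and the bars are its SD. The old kidneys, 0.611% to 0.692%, lie below all young kidneys, 0.704% to 0.763%, and the treated kidneys reach from 0.616% to 0.735%.

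Of the accessory subunits in the proximal membrane arm, next to the peripheral arm, 4 of 9 fell (median −0.27). Ndufa1, a small single-helix membrane subunit, stood at 266, 276 and 295 CPM in young kidneys (lowest, median, highest), 152, 199.8 and 234 in old and 155, 201 and 262 in treated kidneys. All 8 old kidneys were below the lowest young kidney, and so were all 8 treated ones. The fold change from young to old was −0.50 ± 0.10 (adjusted p = 0.000771), the largest fall among the 46 genes. Ndufa8, an accessory subunit with paired cysteine motifs on the intermembrane-space side, was at 151, 162 and 167 CPM in young, 121, 129 and 135 in old and 111, 126 and 142 in treated kidneys, again with no overlap between young and old. It fell by a fold change of −0.32 ± 0.07 (adjusted p = 0.00533).

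Both Ndufc genes, which encode small membrane-arm subunits, fell, with a median of −0.37. Ndufc2 had 278, 310.5 and 343 CPM in young, 215, 234 and 284 in old and 191, 247 and 259.9 in treated kidneys, and 7 of 8 old kidneys lay below the lowest young one. Its fold change was −0.37 ± 0.08 (adjusted p = 0.00244). Ndufc1 had 164, 180.0 and 282 CPM in young, 125, 155 and 168 in old and 117, 146 and 176 in treated kidneys. The highest young value came from replicate 6 alone; the other 5 young kidneys were at 164 to 191 CPM. The Ndufc1 fold change of −0.38 ± 0.10 (adjusted p = 0.0174) shrank to −0.25 without that kidney (adjusted p = 0.113 by edgeR), so this call rests on 1 library. The end of Ndufc1 also matches a processed pseudogene, Gm48067, at 97.2% identity over 144 bases, so its level is uncertain.

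The other 5 genes of this region did not pass. Ndufa13 (GRIM-19), whose product is also known as a partner of STAT3, came closest with −0.27 ± 0.09 (adjusted p = 0.0525), from 282, 308 and 318 CPM in young to 213, 247 and 288 in old kidneys. Ndufa10, a kinase-fold accessory subunit, had −0.21 ± 0.08 (adjusted p = 0.116) and levels of 349.9, 408 and 449 CPM in young and 308, 360.1 and 384 in old kidneys. For Ndufa11 the fold change was −0.0024 ± 0.08 (adjusted p = 0.993), with a 95% interval of −0.17 to 0.16. The fold changes of Ndufa3 and Ndufs5 were −0.13 ± 0.08 and −0.24 ± 0.25. Ndufs5 was counted with only 6.58, 8.08 and 11.1 CPM in young kidneys, and the last 200 bases of its transcript are 99% identical to a processed pseudogene, BC002163, so its level is uncertain.

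In the distal membrane arm, which holds most Ndufb subunits, 3 of 10 genes fell and all 10 fold changes were below 0 (median −0.25). Ndufb5, a single-helix accessory subunit, was at 230.0, 253 and 268 CPM in young, 159.6, 188 and 208 in old and 153, 189 and 251 in treated kidneys. Young and old kidneys did not overlap, and the fold change was −0.42 ± 0.09 (adjusted p = 0.00192). Ndufb6 stood at 116, 141 and 161 CPM in young, 86.6, 104 and 118 in old and 74.4, 104 and 134 in treated kidneys, with 1 old kidney inside the young range. It had the largest fall of the Ndufb group, −0.43 ± 0.10 (adjusted p = 0.00326). The last 200 bases of Ndufb6 also match another gene's transcript (Smim27) without a difference, so its level is uncertain. The strand of that match and its place in the other transcript were not recorded. Ndufb2 was at 120.0, 136 and 171 CPM in young, 102, 114 and 122 in old and 95.03, 126 and 146 in treated kidneys, with 7 of 8 old kidneys below the young range. The Ndufb2 fold change was −0.30 ± 0.09 (adjusted p = 0.0316). In its last 200 bases, 146 match a Braf transcript. The strand of that match was not recorded, so whether Braf reads could count for Ndufb2 is not known. The call was lost without young replicate 2 or 4 or old replicate 2 or 8, with an adjusted p of up to 0.130 (fold change −0.24, young replicate 4).

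The other 7 Ndufb genes ranged from −0.05 for Ndufb8 to −0.25 for Ndufb3, with adjusted p of 0.1005 or more. Ndufb8, whose protein is widely used on blots as a marker of assembled complex I, was at 377, 409 and 442 CPM in young, 315, 403 and 463 in old and 308, 376 and 439 in treated kidneys, so the young values lay inside the range of the old ones. With a fold change of −0.05 ± 0.08 its 95% interval ran from −0.22 to 0.12. It shares 124 identical bases at its 3′ end with another gene model, Gm20538.

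**Figure D2:**
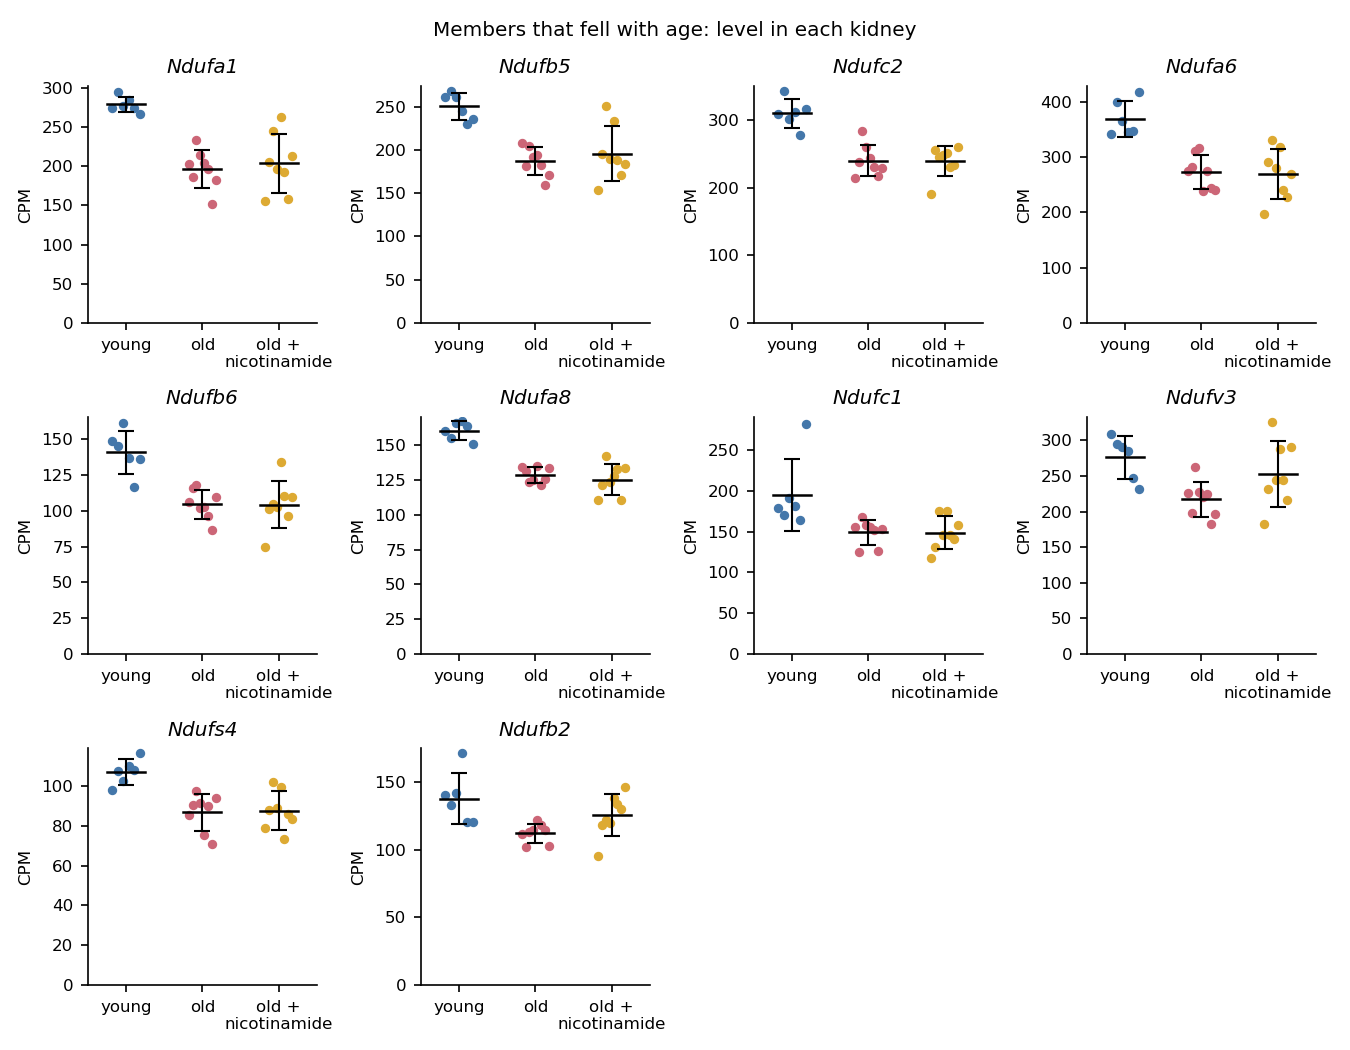
Levels (CPM, axes from 0) in every kidney of 10 complex I genes that fell with age, 1 panel per gene, with young, old and NAM-treated old kidneys side by side; each point is 1 kidney, the line is the mean and the bars are the SD. In Ndufa1, Ndufa6, Ndufa8, Ndufb5 and Ndufs4 all old points lie below all young points, while the highest young Ndufc1 point, 282 CPM, stands alone.

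The 8 genes of the Q module had a median of −0.26. Ndufa6, an LYR-motif protein that binds the acyl carrier protein, was at 341, 356 and 418 CPM in young, 238, 276 and 317 in old and 197, 275 and 330.2 in treated kidneys. None of the old or treated kidneys reached the lowest young one. The fold change to old was −0.44 ± 0.09 (adjusted p = 0.00244).

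Ndufs8, a core subunit that carries iron-sulphur clusters, lay just outside the threshold: 86.3, 102 and 114 CPM in young, 69.5, 79.8 and 109 in old and 77.9, 95.05 and 117 in treated kidneys, with a fold change of −0.29 ± 0.10 (adjusted p = 0.0582). It passed in 11 of 34 alternative analyses. Ndufs3, a core subunit, had a fold change of −0.30 ± 0.13, the lowest of the Ndufs genes, and did not pass (adjusted p = 0.156). It was at 27.7, 28.5 and 39.01 CPM in young and 19.1, 24.8 and 29.7 in old kidneys, and its 3′ end is shared with a processed pseudogene. In the same module, Ndufa9 had −0.24 ± 0.10, Ndufs7 −0.15 ± 0.09, Ndufa5 −0.14 ± 0.15 and Ndufa7 −0.05 ± 0.08.

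In the N module 2 of 8 genes fell, both of them accessory subunits, and all 8 fold changes were below 0 (median −0.20). Ndufv3 was at 231, 288 and 309 CPM in young, 182, 222 and 262 in old and 183, 244 and 326 in treated kidneys, and 7 of 8 old kidneys were below the young range. Its fold change was −0.35 ± 0.10 (adjusted p = 0.0221). Leaving out young replicate 1, young replicate 2 or old replicate 7 took the adjusted p to between 0.0520 and 0.0662. Ndufs4, a late-joining subunit whose loss causes Leigh-like disease in mice, was at 97.9, 108 and 117 CPM in young, 70.8, 90.1 and 97.7 in old and 73.5, 87.02 and 102 in treated kidneys. All old kidneys lay below the lowest young one, by a narrow margin, and the fold change was −0.30 ± 0.09 (adjusted p = 0.0283). Ndufs4 lost its call without any 1 of young replicates 2, 4 and 6 and old replicates 5 and 7 (adjusted p 0.0525 to 0.0688), and without the 4 kidneys named above (fold change −0.24, adjusted p = 0.107).

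The core subunits of the N module did not pass. Ndufv1, which binds NADH and flavin, was at 278, 289.6 and 315 CPM in young and 223, 253 and 275 in old kidneys, with no overlap, but its fold change of −0.22 ± 0.08 had an adjusted p of 0.0898. It was −0.21 ± 0.08 for Ndufv2 (adjusted p = 0.117) and −0.18 ± 0.08 for Ndufs1 (adjusted p = 0.194). The accessory subunits Ndufa2, Ndufa12 and Ndufs6 had −0.16 ± 0.09, −0.08 ± 0.09 and −0.13 ± 0.08; the ends of Ndufa12 and Ndufs6, like those of Ndufb11 and Ndufaf7, match other genes, so their levels are uncertain.

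Ndufab1, the mitochondrial acyl carrier protein, serves complex I, fatty acid synthesis and iron-sulphur cluster assembly. It was at 47.4, 56.96 and 71.3 CPM in young, 37.7, 46.5 and 55.7 in old and 30.4, 42.01 and 51.4 in treated kidneys, with a fold change from young to old of −0.31 ± 0.11 (adjusted p = 0.0876). Its last bases match 2 processed pseudogenes exactly, so its level is uncertain. The pair that complex I nomenclature keeps but that belongs with cytochrome c oxidase did not pass either: Ndufa4 had −0.19 ± 0.10 (adjusted p = 0.277) and Ndufa4l2, a hypoxia-inducible paralogue, 0.27 ± 0.41 (adjusted p = 0.7804). Ndufa4l2 had the highest fold change of the 46 genes, but with 0.751, 2.53 and 6.11 CPM in young and 0.6100, 3.53 and 6.02 in old kidneys its 95% interval ran from −0.56 to 1.10.

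None of the 8 assembly factors passed, and 7 of 8 fold changes were below 0, with a median of −0.22 that was close to the −0.24 of the 38 subunits. Ndufaf4, which works with Ndufaf3, was just outside the threshold: it was at 82.1, 89.1 and 103 CPM in young, 66.5, 76.7 and 80.7 in old and 60.1, 68.96 and 86.1 in treated kidneys. Young and old did not overlap, and the fold change was −0.28 ± 0.09 (adjusted p = 0.0511). Ndufaf8 was unlike it, at 88.2, 97.2 and 112 CPM in young, 88.9, 98.2 and 107 in old and 81.1, 91.01 and 105 in treated kidneys and with a fold change of −0.01 ± 0.08 (adjusted p = 0.954). The others were counted less and had wider errors. Ndufaf5 had the lowest fold change, −0.44 ± 0.24 (adjusted p = 0.299), at 5.88, 8.14 and 12.5 CPM in young and 3.81, 7.05 and 8.66 in old kidneys, and Ndufaf2 the highest, 0.04 ± 0.17 (adjusted p = 0.936). Between them were Ndufaf6 (−0.30), Ndufaf1 (−0.25), Ndufaf7 (−0.20) and Ndufaf3 (−0.15). Whether assembly factors and subunits changed by different amounts was not tested.

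**Figure D3:**
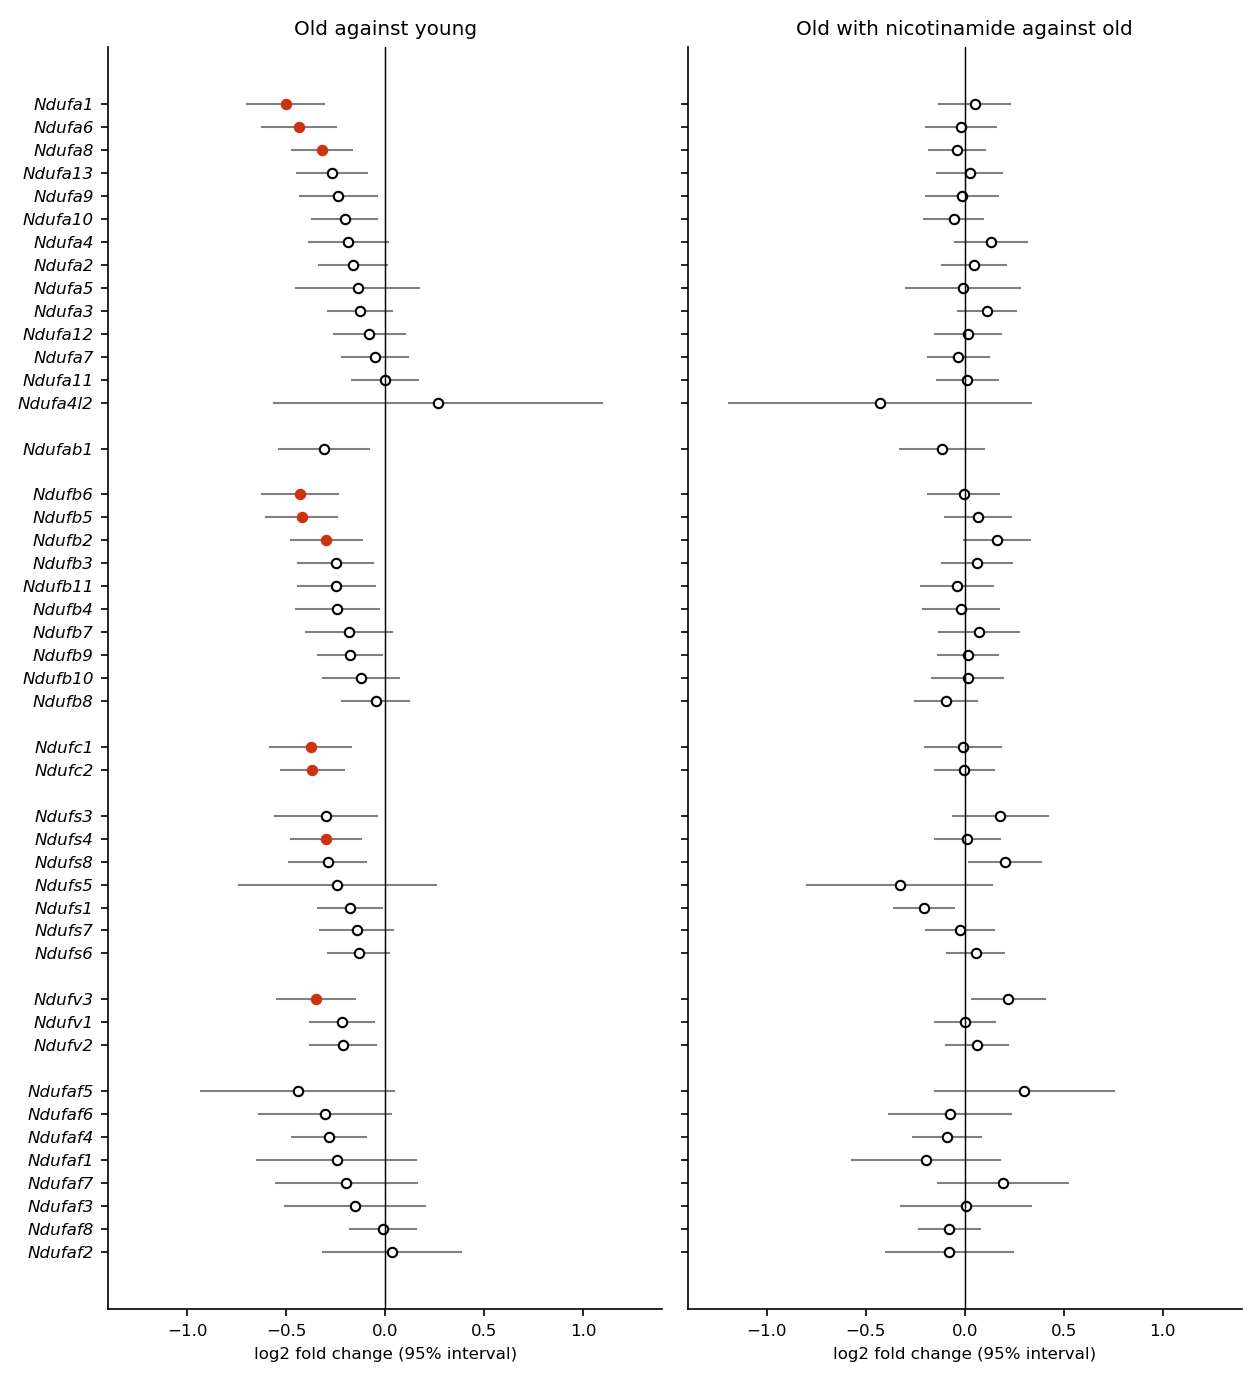
Fold changes (log2 scale) of 45 complex I genes, grouped by subunit family, for old against young and for NAM-treated old against old kidneys; points are estimates, bars are 95% intervals and filled points passed the threshold. In the first comparison all points but those of Ndufa4l2 and Ndufaf2 lie left of 0 and 10 are filled; in the second the points scatter around 0 and none is filled.

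By family, the counts of lower genes in old kidneys and the median fold changes were 3 of 14 and −0.17 for Ndufa, 3 of 10 and −0.25 for Ndufb, 2 of 2 and −0.37 for Ndufc, 2 of 8 and −0.26 for Ndufs, and 1 of 3 and −0.22 for Ndufv. Every family's median was below that of all tested genes. The families overlapped in their single values: Ndufa held both the largest fall, Ndufa1, and 3 genes near 0, Ndufa11, Ndufa7 and Ndufa12. By position in the enzyme, the proximal membrane arm had a median of −0.27, the distal membrane arm −0.25, the Q module −0.26 and the N module −0.20. These are descriptions, with no test between groups.

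NAM-treated old kidneys were next compared with untreated old kidneys, which asks whether the diet moved these RNAs at old age. None of the 46 genes passed in either direction by edgeR, DESeq2 or limma-voom; over all tested genes, 0.0136% (2 genes, Gm38319 and CT010467.1) were lower and 0.0136% (S100a11 and Arf3) higher by edgeR. These names are given because the list was so short, after the values were seen. At an unadjusted p under 0.05, 1 of the 46 was lower and 2 higher, against 476 lower and 431 higher over all 14683 genes. The median fold change of the 46 was −0.001 and 23 of 46 were below 0. With a median SE of 0.0872, the 95% intervals of 43 genes spanned 0.

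Among the 11 genes that fell with age, fold changes from old to treated kidneys ran from −0.04 to 0.22, with a median of −0.003. Ndufa1 had 0.05 ± 0.09 (95% interval −0.13 to 0.23), Ndufa6 −0.02 ± 0.09 (−0.19 to 0.16) and Ndufb5 0.07 ± 0.08 (−0.10 to 0.23). For Ndufa8, Ndufb6, Ndufc1, Ndufc2 and Ndufs4 the estimates lay between −0.04 and 0.01. For these 8 genes the difference lay within the spread between kidneys. Ndufv3 had the highest value of the 11, 0.22 ± 0.09 (unadjusted p = 0.0204, adjusted p = 0.704 by edgeR), and Ndufb2 followed with 0.16 ± 0.08 (unadjusted p = 0.0583, adjusted p = 0.803 by edgeR). In Ndufv3 the treated kidneys reached from 183 to 326 CPM, from near the lowest old kidney to above the highest young one.

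Outside those 11, Ndufs8 had 0.20 ± 0.09 (adjusted p = 0.738), Ndufa4 0.13 ± 0.09 (adjusted p = 0.8800) and Ndufaf5 0.30 ± 0.22 (adjusted p = 0.896), each the highest of its family. Ndufs1, the largest subunit of the N module, had 142, 181 and 197 CPM in young, 143, 154 and 185 in old and 119.6, 135 and 151 in treated kidneys. Its fold change of −0.20 ± 0.08 had the smallest unadjusted p of the 46 genes, 0.0096, and an adjusted p of 0.643. The lowest fold change of each family was also short of the threshold: −0.43 for Ndufa4l2, −0.33 for Ndufs5, −0.20 for Ndufaf1, −0.12 for Ndufab1, −0.09 for Ndufb8, −0.0093 for Ndufc1 and 0.00063 for Ndufv1.

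Set against the young kidneys, the treated old kidneys had 13 of 46 genes lower (3.96% of all tested genes were lower), and the median fold change was −0.17. This comparison shares the young kidneys with the comparison of old and young, so the 2 are not independent. Among the 13 were Ndufa1, Ndufa6, Ndufa8, Ndufa10, Ndufab1, Ndufb5, Ndufb6, Ndufc1, Ndufc2, Ndufs1, Ndufs4 and Ndufaf4. Ndufa6 stood at −0.46 ± 0.09 (adjusted p = 0.00136) against young, where untreated old kidneys had −0.44 ± 0.09. For Ndufs1 the value was −0.38 ± 0.08 (adjusted p = 0.00174), beside −0.18 ± 0.08 in untreated old kidneys. Ndufv3 had −0.13 ± 0.10 (adjusted p = 0.478) beside −0.35 ± 0.10, and Ndufb2 −0.14 ± 0.09 (adjusted p = 0.389) beside −0.30 ± 0.09. The direct comparison of treated and untreated old kidneys, given above, did not pass for any of these 4.

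The rest of complex I was looked at in the same fit. Of the 7 membrane-arm subunits encoded by mitochondrial DNA, mt-Nd3 and mt-Nd4l were too low to test (at most 1.10 and 1.12 CPM), and 0 of the other 5 passed; all 5 fold changes from young to old were below 0, with a median of −0.14. They were −0.27 ± 0.09 for mt-Nd1 (adjusted p = 0.0681), −0.26 ± 0.09 for mt-Nd5 (adjusted p = 0.0643), −0.14 ± 0.09 for mt-Nd2, −0.14 ± 0.13 for mt-Nd6 and −0.11 ± 0.16 for mt-Nd4. In mt-Nd1 every old kidney (17440 to 24389 CPM) was below every young one (24421 to 26763 CPM). Against old kidneys, treated kidneys had 0.14 ± 0.09 for mt-Nd1 and 0.23 ± 0.15 for mt-Nd4, where their range was 36900 to 94252 CPM. Mitochondrial transcripts carry short poly(A) tails or none, and their levels are not set beside those of nuclear genes.

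Assembly factors of complex I that carry other names gave 1 of 13 tested genes lower, Tmem70, at −0.35 ± 0.11 (adjusted p = 0.0416), with a median of −0.22; Tmem70 also serves ATP synthase. Aifm1, which supports import of complex I subunits, had −0.13 ± 0.08 in old against young and −0.27 ± 0.07 in treated against old kidneys, neither past the threshold. Among regulators of mitochondrial biogenesis 1 of 11 was lower: Esrra, which encodes ERR alpha, fell from 58.4 ± 11.3 CPM (SD, n = 6) to 43.7 ± 8.29 CPM (SD, n = 8), a fold change of −0.42 ± 0.13 (adjusted p = 0.0347). The genes of the other regulators named with the promoters did not pass. From young to old, Nrf1 had 0.04 ± 0.15 (adjusted p = 0.928) and Gabpa 0.03 ± 0.19 (adjusted p = 0.950). Yy1 had −0.04 ± 0.10 (adjusted p = 0.874). Among other genes of mitochondrial mass 1 of 11 was lower, the chaperonin Hspd1 (−0.51 ± 0.10, adjusted p = 0.00139).

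Complexes II to V gave nearly the same figures as complex I: 11 of 42 tested genes lower, 0 higher and a median of −0.21. The complex II list holds the subunits of succinate dehydrogenase (Sdha to Sdhd) and its assembly factors (Sdhaf1 to Sdhaf4). Of these 8 genes 2 fell, the subunits Sdhc (−0.35 ± 0.09) and Sdha, the flavoprotein (−0.26 ± 0.07). In complex III 1 of 9 fell, the Rieske protein Uqcrfs1 (−0.49 ± 0.10). In complex IV 3 of 11 fell, Cox8a (−0.36 ± 0.09), Cox6b1 (−0.27 ± 0.08) and Cox5a (−0.26 ± 0.08). In complex V, ATP synthase, 5 of 14 fell, among them Atp5b (−0.35 ± 0.07), Atp5a1 (−0.32 ± 0.07), Atp5g3 (−0.34 ± 0.08) and Atp5j (−0.39 ± 0.12). These counts show nothing particular to complex I. In treated against old kidneys none of the genes in any of these lists passed.

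**Figure D4:**
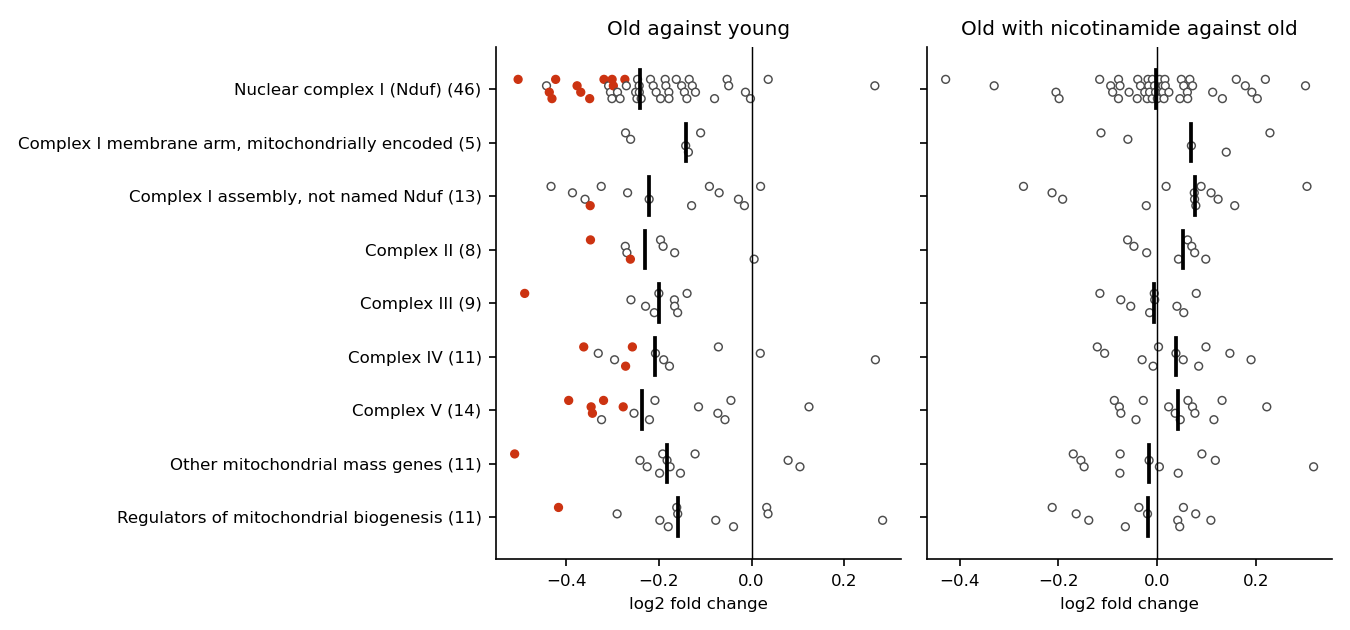
Fold changes (log2 scale, horizontal) of single genes in nuclear complex I, its mitochondrially encoded subunits, its other assembly factors, complexes II to V and 2 further mitochondrial lists, for old against young (left) and NAM-treated old against old (right); each point is a gene, filled where it passed the threshold, and the bar is the list's median. On the left the medians lie between −0.14 and −0.24; on the right no point is filled and complex I has its median at −0.001.

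The level of complex I genes also varied from kidney to kidney within a group. As the mean over the 46 genes of log2(CPM + 1), centred per gene, it was 0.07 to 0.22 among young, −0.24 to 0.03 among old and −0.28 to 0.15 among treated kidneys, again with no overlap between young and old. For complexes II to V the level was 0.01 to 0.18 among young, −0.23 to 0.07 among old and −0.32 to 0.13 among treated kidneys. The lowest kidney of each old group was the same in both: old replicate 7 and treated replicate 1. In these 2 kidneys the proximal tubule markers were also the lowest of their groups, at −0.33 and −0.60, as were distal and connecting tubule markers, at −0.26 and −0.63. Adipocyte markers were the highest of their groups there, at 2.14 and 3.86, as were stroma and smooth muscle markers, at 0.57 and 0.49. Old replicate 7 was also the highest old kidney for principal cell markers (0.49) and the lowest for podocyte markers (−0.28). Treated replicate 1 was the highest treated kidney for thick ascending limb (0.39), macrophage (0.90) and endothelium markers (0.24). The part of any of these cells in the low complex I level was not tested. Treated replicate 2, with an adipocyte level of 3.56, had a complex I level of −0.08. Treated replicates 5 and 3 were the highest treated kidneys for complex I, at 0.15 and 0.12.

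**Figure D5:**
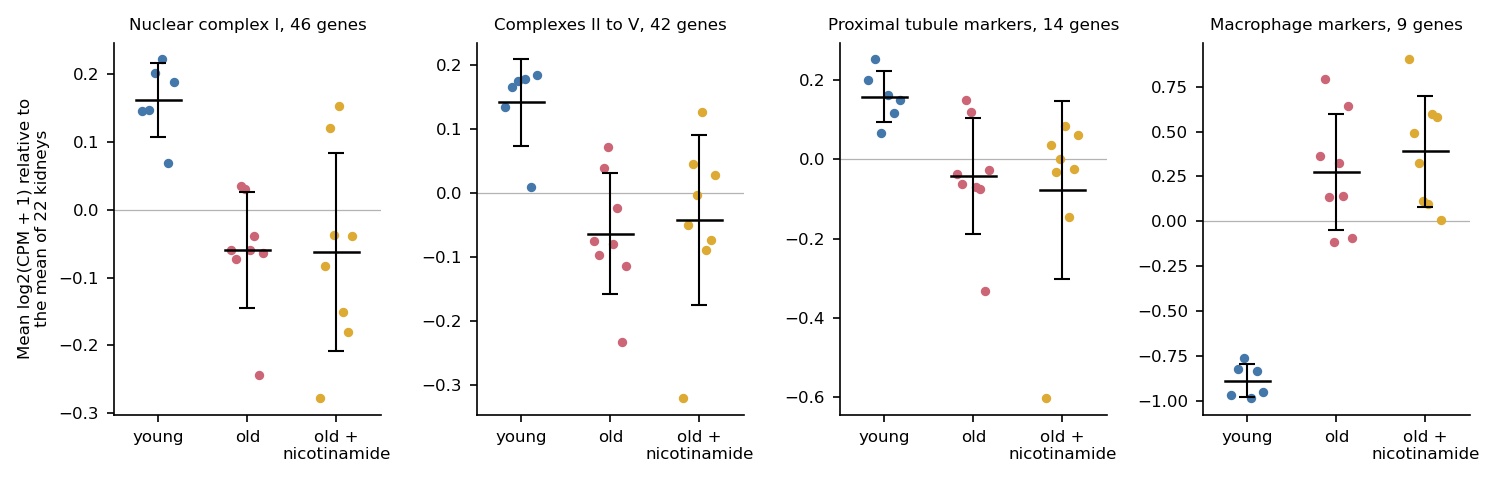
Level per kidney (mean log2(CPM + 1) of a list, relative to the mean of the 22 kidneys) of the 46 complex I genes, 42 genes of complexes II to V, 14 proximal tubule markers and 9 macrophage markers, each with its own vertical axis; points are kidneys, lines are group means and bars are the SD. Old replicate 7 and treated replicate 1 are the lowest points of their groups in the first 3 panels, and in the last all young kidneys lie below all others.

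Cell type markers and other RNA classes moved with age beside the complex I genes, and their part in the result was not tested. Proximal tubule markers summed to 9218 to 10478 CPM in the young, 7047 to 9694 in the old and 5577 to 9539 in the treated kidneys, and 3 of 14 were lower in old kidneys (median −0.22). Distal and connecting tubule markers gave 3 of 7 lower (median −0.48; sums of 1462 to 2032 CPM in young and 1297 to 1638 in old), intercalated cell markers 1 of 6 lower (−0.27; 162 to 195 and 123 to 185) and thick ascending limb markers 1 of 6 lower (0.16; 1428 to 3082 and 1836 to 3279). Principal cell markers gave 0 of 6 lower and 0 higher (172 to 349 and 223 to 799 CPM). None of the markers in these tubule lists passed the test as higher in old kidneys.

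Of the other cell types, most macrophage and stroma markers were higher in old kidneys. Macrophage markers gave 8 of 9 higher (median 1.36), with sums of 229.8 to 258 CPM in the 6 young, 398 to 775 in the 8 old and 441 to 757 in the 8 treated kidneys. Stroma and smooth muscle markers gave 7 of 8 higher (0.71; 245 to 329, 372 to 607 and 363 to 575). Podocyte markers gave 2 of 6 higher (182 to 224 CPM in young and 180 to 279 in old), endothelium 1 of 7 (373 to 412 and 390 to 452), T and natural killer cells 2 of 5 tested (3.94 to 9.23 and 8.62 to 28.0), B and plasma cells 1 of 4 tested (362 to 931 and 1182 to 3209) and adipocytes 0 of 5 (43.6 to 121 and 44.5 to 244, and up to 709 in treated kidneys). No marker was at 0 in every kidney; 4 lymphocyte markers were too low to test. In treated against old kidneys no marker passed. The rRNA gene CT010467.1 took 4.15% to 4.60% of counts among young, 4.51% to 6.48% among old and 3.13% to 4.45% among treated kidneys, and mitochondrially encoded genes 26.7% to 28.7%, 24.8% to 28.9% and 24.3% to 30.6%. With both left out before scaling, 14 of 46 complex I genes were lower in old kidneys and 0 higher.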

How the data were processed

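Raw read counts per gene, 1 column per kidney, were deposited by the authors, who used STAR and HTSeq per the submitters' processing notes. No source used here gives versions, the strand setting or the handling of duplicates. The notes name GRCh38, a human build, while the identifiers are of mouse, so the only coordinates given are those of the RefSeq promoter stretches (GRCm38.p6). Symbols came from GENCODE M21. Reads in no gene (19.1% to 24.7%) or in more than 1 (0.512% to 0.569%) and reads with several alignments (0 in every column) stayed out of the totals.

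Genes with enough counts (filterByExpr: minimum count 10, total 15, smallest group 6; 14683 genes) entered 1 quasi-likelihood fit over all 22 kidneys in edgeR 4.0.16, R 4.3.3, with TMM factors, robust dispersions and no covariate; tests were two-sided contrasts with Benjamini-Hochberg adjustment over all tested genes at 0.05. Every adjusted p given is from this fit unless another tool is named. The SE was obtained by dividing the size of the log2 fold change by the root of the F statistic. Alternatives included DESeq2 1.42.0 and limma-voom (limma 3.58.1). No pair of libraries of the same group was alike within counting error, and pairs across groups were not compared. The fit was tested on simulated data.

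The genes, lists and tests were chosen with earlier results of these data known. Named were the genes past the threshold; in each family those with the highest level and the largest rise and fall in both main comparisons; of other pathway lists up to 4 past the threshold, and all mt-Nd genes. Others are named to account for the rest; 1 gene that these counts include is not reported here by itself. That rule took every Nduf symbol without -ps; 3 such genes (Ndufa11b, Ndufb4c, Ndufs6b) are annotated as processed pseudogenes and were set aside once the annotation was read. A gene's level was taken as uncertain where its last 200 bases matched another gene's transcript (11 of 46). A match meant 75 or more bases at 97% identity or above. Ndufb2, Ndufb8, Ndufc1 and Ndufs3, whose matches are described above, are among the 11, so their levels are uncertain too. Matches on either strand and at any place in the other transcript were taken. Coa1 and Atp5pb had no entry under these symbols, and Timm23 was too low to test.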

Additional observations from a re-analysis of the deposited data

Results flagged for a closer look

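In 78 groups of kidneys (gene or list levels by group), the kidney farthest from the rest was compared with Dixon's 95% limit, and 4 stood out; chance alone flags about 1 group in 20. Ndufc1 was at 282 CPM in young replicate 6, against 164 to 191 in the other 5 young kidneys. Ndufs3 was at 39.0 CPM in young replicate 4, against 27.7 to 31.5 in the others. Ndufc2 was at 191 CPM in treated replicate 1, against 230.1 to 259.9 in the other 7 treated kidneys. Finally, the level of all 46 genes was −0.24 in old replicate 7, against −0.07 to 0.03 in the other 7 old kidneys. Without old replicate 7, 9 of 46 genes were lower in old than in young kidneys.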

How the results depend on the processing

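Over 34 alternatives (12 settings and 22 omissions of 1 kidney), no direction of a called gene reversed. The count of the 46 genes lower in old than in young kidneys, 11 in the analysis as reported, was 8 with library totals in place of TMM factors, 16 with only the 2 groups compared in the fit, 13 by DESeq2, 11 by limma-voom and 8 to 15 with 1 kidney left out; none was higher in any. The median fold change ran from −0.26 to −0.18. In treated against old kidneys 0 genes passed under each alternative, and against young 9 to 17 were lower. Ndufa1, Ndufa6, Ndufa8, Ndufb5, Ndufb6 and Ndufc2 passed in all 34; Ndufs4 was lost in 9, Ndufb2 in 5, Ndufv3 in 3 and Ndufc1 in 2, and Ndufs8 and Ndufv1 passed in 11 and 2. Ndufaf4 and Ndufa13, also just outside the threshold, were not followed one by one across the alternatives. The cause of the shifts between alternatives was not tested.

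The replicate numbers did not pair the kidneys: over 20 equal-numbered pairs, correlations of deviations from group means ran from −0.082 to 0.059, none above 0.1. With a replicate block all the same, 10 genes were lower in old kidneys (median −0.20), Ndufs4 being lost (adjusted p = 0.0623 by edgeR), 0 differed in treated against old kidneys and 11 were lower in treated than in young kidneys. Depth limits the genes counted least: SEs reached 0.41 for Ndufa4l2 against a median of 0.0937.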

Other observations

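Of the Nduf rows set aside, Ndufb1-ps was counted at a level like that of subunits, 131 to 160.5 CPM among young, 89.3 to 130.4 among old and 94.1 to 142 among treated kidneys, and was lower in old than in young kidneys (−0.32 ± 0.09, adjusted p = 0.0212 by edgeR). RefSeq (GRCm38.p6) lists this symbol as a synonym of a protein-coding gene, Ndufb1. Ndufab1-ps (−0.27 ± 0.20), Ndufs6b (−0.33 ± 0.18) and Ndufa11b (−0.51 ± 0.50) did not pass, and Ndufb4c was at 0 in all kidneys, which for the kidney with the fewest gene counts, 3351065, allows up to 3 counts.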
